A study of Mus musculus with 21 samples.

Results

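ISG15 is a ubiquitin-like protein that cells attach to other proteins, and the genes described here are the 5 that encode the modifier and the enzymes that attach and remove it in the mouse: Isg15, Uba7, Ube2l6, Herc6 and Usp18. They are 5 of the 48474 rows of a gene count table from mouse neocortex, and all 5 passed the filter on low counts that kept 18248 genes. The members were chosen by their symbols with their measured difference between transgenic and wildtype mice already known, so that difference is given below as a description and without a test. Tests are given for measures the choice did not use, such as the cohort within a genotype and the variation among mice of 1 genotype. The other gene lists were also chosen with earlier results of these data known. The adjusted p values of their genes between genotypes are therefore descriptive.

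RNA was sequenced from 21 mice, with the tissue labelled as neocortex, although the study also names hippocampus for its rNLS8 data. The 10 transgenic mice (TG) were bigenic rNLS8 mice on a C57BL/6J background, in which a NEFH-tTA transgene drives tetO-hTDP-43ΔNLS, a human TDP-43 without its nuclear localization signal, once doxycycline is withdrawn. NEFH encodes a neurofilament subunit, and its promoter confines the transgene largely to neurons, with a few oligodendrocytes also positive. The 11 wildtype mice (WT) were monogenic littermates. Mice of both genotypes were injected into the cerebral ventricle at 17 to 19 weeks of age with an antisense oligonucleotide without a target (350 µg in 10 µL), had doxycycline removed (200 mg per kg of diet) 2 weeks later and were killed after 3 more weeks, so every group carries the injection. The mice came from 2 independent cohorts, A with 4 WT and 3 TG mice and B with 7 WT and 7 TG mice. The labels do not give the sex of the mice, and the study pooled the sexes of its naive rNLS8 mice. The deposited counts summed to between 20700912 and 22263809 per mouse.

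ISG15 is made of tandem ubiquitin-like domains and ends in the same short motif as ubiquitin. Uba7 (also called Ube1l) is its activating enzyme or E1, Ube2l6 (UbcH8) its conjugating enzyme or E2, and Herc6 the main ISG15 ligase of the mouse, which lacks the Herc5 gene that has this role in humans. Usp18 is the protease that removes ISG15 from its targets, and it also binds the interferon receptor chain Ifnar2 and dampens signalling there. All of these genes are known interferon-stimulated genes. Type I interferon signals through Jak1 and Tyk2 to a complex called ISGF3, which holds Stat2 and Irf9 and binds a DNA element called the ISRE.

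In GRCm38, Isg15 (ENSMUSG00000035692.6) lies on the minus strand at chr4:156199424-156200818. Uba7 (ENSMUSG00000032596.14) lies at chr9:107975505-107984060, Ube2l6 (ENSMUSG00000027078.14) at chr2:84798828-84810335, Herc6 (ENSMUSG00000029798.11) at chr6:57581000-57664632 and Usp18 (ENSMUSG00000030107.10) at chr6:121245906-121270917, all on the plus strand. The RefSeq promoter table of GRCm38.p6 held 4 of the 5 members, with no entry for Usp18. Shown next are the 120 bases before the start of the modifier and its E1, since the members differ there in the elements that interferon-responsive factors bind. The Isg15 stretch is chr4:156200819-156200938 on the minus strand and the Uba7 stretch is chr9:107975447-107975566 on the plus strand, each written 5′ to 3′ up to the base before the start in RefSeq. The gene positions above are those of GENCODE, and for 2 members the sources place the start differently. RefSeq starts Uba7 at 107975567, so the end of the Uba7 stretch lies after the GENCODE start, and it starts Herc6 at 57580992. Distances from the start below are counted from the RefSeq start. Capitals mark matches to the ISRE core in Isg15 and to a shorter IRF core in Uba7.
Isg15: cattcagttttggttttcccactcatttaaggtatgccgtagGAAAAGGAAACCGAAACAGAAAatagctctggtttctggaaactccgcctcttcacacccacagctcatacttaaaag
Uba7: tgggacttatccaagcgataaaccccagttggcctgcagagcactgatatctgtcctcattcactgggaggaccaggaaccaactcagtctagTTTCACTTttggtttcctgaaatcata
The ISRE core searched was GAAANNGAAA on both strands of the 300 bases from 250 before to 50 after each start. The Isg15 window held 3 overlapping matches, which together run from 78 to 57 bases before the start, and the windows of Uba7, Ube2l6 and Herc6 held none. Of all 32851 promoters in the table, 3.44% held the core. The shorter IRF core AANNGAAA, chosen after these sequences were seen, is contained in every ISRE core match and was held by 23.9% of promoters. Uba7 held 1 match to it, read on the minus strand, 27 to 20 bases before the start. TTCNNNGAA, the element bound by Stat dimers called GAS, was held by 8.3% of promoters and by none of the 4. For comparison, the same 120 bases of the E2 (chr2:84798708-84798827, plus strand) and the ligase (chr6:57580872-57580991, plus strand) hold no match to any of these motifs, and so no capitals.
Ube2l6: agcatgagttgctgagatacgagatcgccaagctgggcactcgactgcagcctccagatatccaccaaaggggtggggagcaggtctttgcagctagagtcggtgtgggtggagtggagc
Herc6: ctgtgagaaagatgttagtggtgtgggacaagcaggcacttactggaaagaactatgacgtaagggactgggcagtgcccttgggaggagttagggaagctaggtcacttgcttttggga
A match is a run of letters and not a bound site, and the absence of a match concerns only this window.

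The modifier and its protease were above every wildtype mouse in every TG mouse, by little for Usp18 in T_70267 (54.9 normalized counts against 38.2 in the highest WT mouse), while the E1, the E2 and the ligase differed by less, in that order. All 5 were among the 23% of tested genes called higher in TG mice (21.7% were called lower), which for genes chosen on this contrast says nothing further. Herc6 was no longer among the called genes in cohort B alone or without T60303 and T61340. Every TG mouse lay above every WT mouse for 2 of the 5, Isg15 and Usp18, beside 3.85% of all tested genes, and this too is description. Levels in what follows are counts normalized to a common library size, and differences are log2 fold changes of TG against WT with the cohort as covariate. In bulk tissue, more cells that express a gene and more RNA per cell cannot be told apart.

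Isg15 had normalized counts of 18.2 at the lowest, 29.0 at the median and 39.2 at the highest among the 11 WT mice, from 17 to 40 reads each. Among the 10 TG mice the lowest was 81.3, the median 245 and the highest 517, from 83 to 547 reads. The 2 genotypes did not overlap, and the lowest TG mouse, T_70267, still had more than the highest WT mouse. The means were 29.6 ± 7.66 (SD, n = 11) and 265 ± 116 (SD, n = 10), with a log2 fold change of 3.17 (SE 0.20), a 9.02-fold difference. The 3 TG mice of cohort A had 222, 381 and 517, and the 7 of cohort B ran from 81.3 to 288.

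Usp18, the protease, was the other gene without overlap. WT mice ran from 12.5 through a median of 22.7 to 38.2 normalized counts, and TG mice from 54.9 through 169 to 351. WT levels rested on only 12 to 39 reads per mouse, and their relative spread (a coefficient of variation of 37.3%) was the widest of the 5 genes in WT mice. The means were 22.5 ± 8.37 (SD, n = 11) and 178 ± 77.4 (SD, n = 10), a log2 fold change of 2.97 (SE 0.22) or 7.82-fold.

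Uba7, the E1, ran from 32.1 through a median of 45 to 65.9 normalized counts in WT mice and from 56.8 through 80.8 to 199 in TG mice. The groups overlapped only at the edge, with 8 of 10 TG mice above all WT mice. The means of 46.9 ± 9.97 (SD, n = 11) and 90.9 ± 41.1 (SD, n = 10) gave a log2 fold change of 0.97 (SE 0.15), 1.95-fold. The TG mean was carried upward by T60303 at 199, since the next mouse, T61340, had 112.

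Ube2l6, the E2, ran from 85.6 through 113 to 159 normalized counts in WT mice and from 97.0 through 167 to 298 in TG mice. Here 6 of 10 TG mice were above all WT mice, and T_70267 at 97.0 lay within the lower part of the WT range. The means were 116 ± 20.5 (SD, n = 11) and 186 ± 61.0 (SD, n = 10), a log2 fold change of 0.69 (SE 0.10) or 1.61-fold.

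Herc6, the ligase, differed least. WT mice ran from 201 through 288 to 345 normalized counts and TG mice from 258 through 337 to 456, so that the ranges overlapped broadly and 4 of 10 TG mice were above all WT mice. The means were 274 ± 50.1 (SD, n = 11) and 342 ± 53.8 (SD, n = 10), a log2 fold change of 0.32 (SE 0.10) or 1.25-fold. Within cohort A alone the log2 fold change of Herc6 was 0.59 and within cohort B alone 0.19. The same within-cohort values were 3.43 and 3.03 for Isg15, 3.57 and 2.64 for Usp18, 1.25 and 0.81 for Uba7, and 1.0 and 0.52 for Ube2l6.

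**Figure D1:**
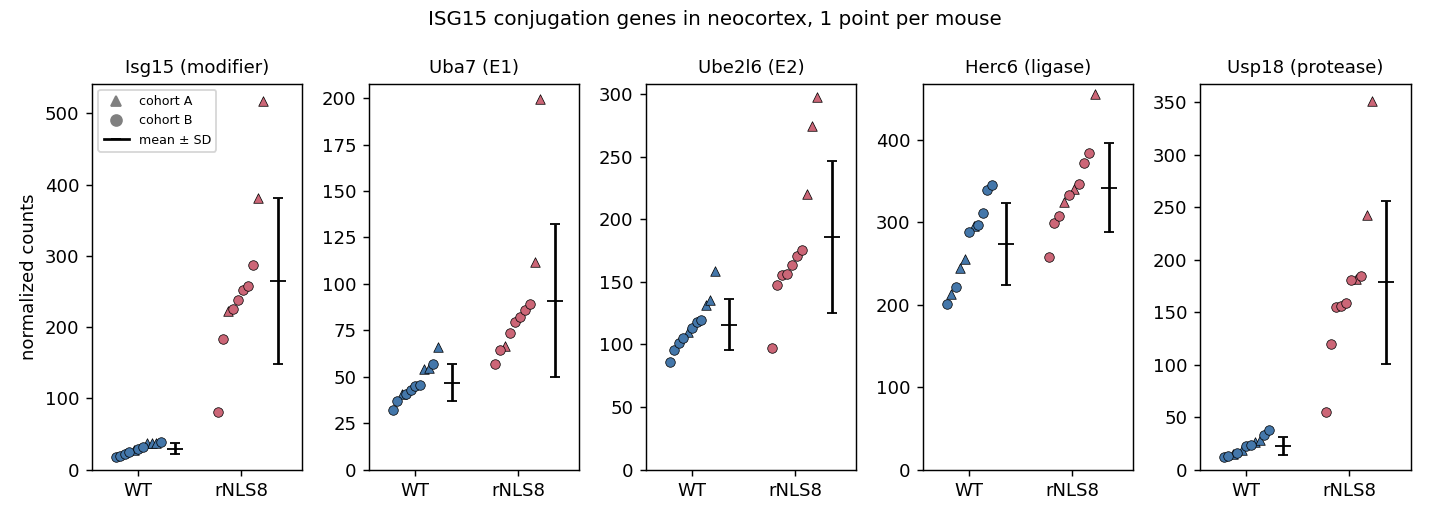
Normalized counts (linear axes from 0) of the 5 genes in each mouse, WT in blue and TG (rNLS8) in red, with triangles for cohort A, circles for cohort B and bars for the mean ± SD. Isg15 and Usp18 do not overlap between genotypes, whereas Herc6 runs from 201 to 345 in WT mice and from 258 to 456 in TG mice.

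Levels of different genes were compared per kilobase of exon, taking the union of exons in the GENCODE M21 basic annotation (756 bases for Isg15, 3195 for Uba7, 1560 for Ube2l6, 4767 for Herc6 and 1771 for Usp18). In WT mice the E2 was the highest, with 74.2 normalized counts per kb, followed by Herc6 with 57.4, Isg15 with 39.1, Uba7 with 14.7 and Usp18 with 12.7. Of these neighbours, Ube2l6 lay above Herc6 in 9 of 11 mice, Herc6 above Isg15 in 10 of 11, Isg15 above Uba7 in 11 of 11 and Uba7 above Usp18 in 8 of 11, so the last pair lay closest. In TG mice Isg15 was the highest at 350 per kb, followed by Ube2l6 at 119, Usp18 at 101, Herc6 at 71.8 and Uba7 at 28.5. Isg15 was above Ube2l6 in 10 of 10 TG mice and Herc6 above Uba7 in 10 of 10, with 9 of 10 for each of the other neighbours in the order.

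The balance between modifier and enzymes differed with it. Per kb, the ratio of Isg15 to its E1 Uba7 had a median of 2.87 in WT mice (1.71 to 3.82) and 12.5 in TG mice (6.05 to 18.9). The ratio of Isg15 to Ube2l6 had a median of 0.507 (0.367 to 0.771) in WT and 2.93 (1.73 to 3.64) in TG mice, and that of Isg15 to Herc6 a median of 0.728 (0.338 to 1.10) and 4.43 (1.72 to 7.40). The ratio of modifier to protease was the exception, with overlapping ranges of 2.24 to 5.86 in WT mice (median 2.65) and 2.87 to 3.81 in TG mice (median 3.53). These ratios are built from the levels the choice used and carry no test. The genes also differ in exon length, and libraries differed in how gene levels related to it. The Spearman rho of level with exon length ran from -0.51 in T61340 to 0.33 in T_70267. The part of this in the ratios was not tested.

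**Figure D2:**
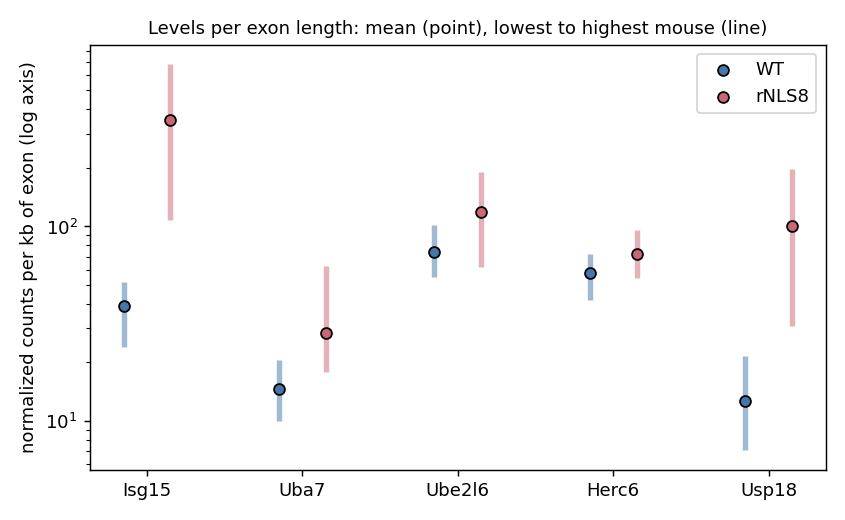
Level of each gene in normalized counts per kb of exon (log axis), with the mean as a point and a line from the lowest to the highest of 11 WT (blue) or 10 TG (red) mice. Isg15 goes from the third place in WT mice (39.1) to the first in TG mice (350), and Usp18 from the last to the third.

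Among mice of 1 genotype, which the choice of genes did not compare, the levels of the modifier, the protease and the E2 were correlated in TG mice, in part through the mice at the extremes. The 10 pairs of members were correlated over the log2 CPM (counts scaled to a common library size, on a log2 scale) of the 10 TG mice, with permutation tests (two-sided, 100000 resamples) adjusted over the 10 pairs. Isg15 and Usp18 had a Pearson r of 0.986 (permutation p = 2e-05, adjusted p = 0.0002) and a Spearman rho of 0.855 (permutation p = 0.00298, adjusted p = 0.0277). Without the 2 mice farthest from the median of Isg15, r was 0.907, and within the 7 mice of cohort B it was 0.993 (exact permutation p = 0.00198). In cohort B without T_70267, its lowest mouse, an alternative chosen after the values were seen, r was 0.941 over 6 mice (exact permutation test, adjusted p = 0.111). Ube2l6 and Usp18 had r = 0.932 (permutation p = 4e-05, adjusted p = 0.0002) and rho = 0.818 (permutation p = 0.00555, adjusted p = 0.0277), with r = 0.827 without the 2 farthest mice and 0.966 within cohort B, which became 0.664 without T_70267 (exact permutation test, adjusted p = 0.354). These are the 2 pairs past the threshold by both measures.

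Isg15 and Ube2l6 had r = 0.90 (permutation p = 0.00112, adjusted p = 0.00373) and rho = 0.673 (permutation p = 0.0391, adjusted p = 0.0783). Without the 2 farthest mice r was 0.672 (exact permutation p = 0.0806), and the call was lost. It was kept with any 1 mouse left out (r from 0.827 to 0.942, adjusted permutation p up to 0.0404). It was also kept with values centred on the cohort mean (r = 0.960, adjusted permutation p = 0.00117). Within cohort B r was 0.957 (exact permutation p = 0.0167, adjusted p = 0.0556), and without T_70267 it was 0.561 there (exact permutation test, adjusted p = 0.483). No pair passed in the 6 mice of cohort B without T_70267, and the r of Uba7 turned to -0.42 with Isg15 and to -0.30 with Usp18. The 3 remaining pairs past the threshold by Pearson's r each held Uba7, with r from 0.761 to 0.779, and none of them passed by Spearman's rho. Centred on the cohort mean, these pairs had r from 0.633 to 0.680 and none passed (adjusted permutation p from 0.0945 to 0.0961). Their r fell to between 0.350 and 0.492 without the 2 farthest mice, and none passed there. Leaving out T60303 alone ended all 3 calls, with adjusted permutation p from 0.0864 to 0.119, with r from 0.639 to 0.694. Leaving out T61340 alone ended them at little change in r (0.740 to 0.767, adjusted permutation p from 0.0549 to 0.0689). The calls of Uba7 with Isg15 and with Usp18 were also lost without T_70252, T_70263, T_69526 or T_70261 alone, and that with Usp18 without T_69531 (adjusted permutation p from 0.0503 to 0.0568), with r of 0.760 to 0.789 and so about as before. No pair that held Herc6 passed (r from 0.549 to 0.679, adjusted permutation p from 0.0524 to 0.0971), but without T_70267 alone Herc6 passed with Isg15 (r = 0.725, adjusted permutation p = 0.038) and with Usp18 (r = 0.777, adjusted permutation p = 0.0314).

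In the 11 WT mice none of the 10 pairs passed by permutation test with either measure, with r from -0.30 to 0.55 and a median of 0.18, against 0.55 to 0.99 with a median of 0.77 in TG mice. The difference between the genotypes in these correlations was not tested, and WT counts of Isg15 and Usp18 were low (12 to 40 reads per mouse). The ratio of the highest to the lowest mouse was 2.15 for Isg15, 3.05 for Usp18, 2.05 for Uba7, 1.85 for Ube2l6 and 1.72 for Herc6 in WT mice. The highest TG mouse had 6.36 times the Isg15 level of the lowest, 6.39 times the Usp18, 3.51 times the Uba7, 3.07 times the Ube2l6 and 1.76 times the Herc6 level. The coefficient of variation of Herc6 was 18.3% in WT and 15.7% in TG mice. Within cohort B alone it was lower in TG than in WT mice for Uba7 (15.5% against 18.1%) and Usp18 (31.0% against 43.1%) as well. For Uba7 the TG ratio of 3.51 rests on T60303, at 199 normalized counts against 112 in the next mouse and 56.8 in the lowest. Differences in spread were not tested. T60303 was the highest TG mouse for all 5 genes and T61340 the second for all but Herc6, where it was the seventh of 10. T_70267 was the lowest for all but Herc6, where it was the ninth.

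**Figure D3:**
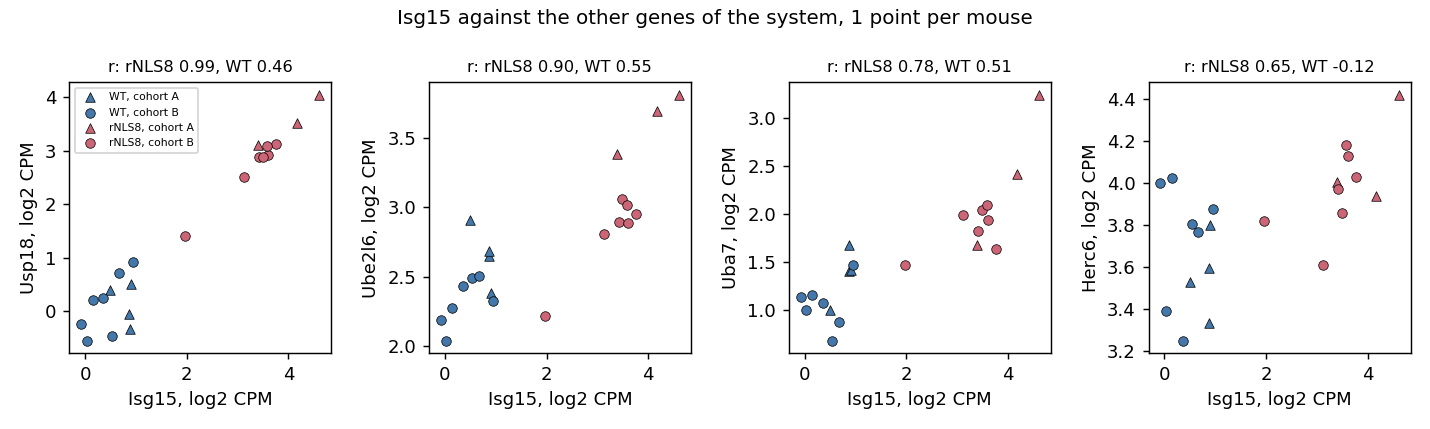
Log2 CPM of Isg15 (x axes) against that of each of the other genes (y axes), 1 point per mouse, WT blue and TG red, triangles for cohort A and circles for cohort B. Isg15 and Usp18 lie close to 1 line in TG mice (r = 0.99), and Herc6 is the most scattered (r = 0.65).

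Cohorts were compared within each genotype. With 1 mean per genotype and cohort, edgeR's quasi-likelihood test (Benjamini-Hochberg adjustment over all tested genes) called 4 of the 5 members lower in cohort B than in cohort A among TG mice, beside 11.8% of all tested genes called in either direction. Ube2l6 had 220, 274 and 298 normalized counts in cohort A and 97.0 to 176 in cohort B, without overlap. Its log2 difference was -0.79 (SE 0.14, adjusted p = 0.00178). Isg15 differed by -0.78 (SE 0.25, adjusted p = 0.0439), Usp18 by -0.84 (SE 0.27, adjusted p = 0.0421) and Uba7 by -0.73 (SE 0.22, adjusted p = 0.0327), and in each of these 3 the cohorts overlapped. Herc6 differed by -0.19 (SE 0.15, edgeR adjusted p = 0.439).

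Most of these calls lay close to the threshold. Over 29 alternatives, most of which leave out 1 mouse, the call was lost in 11 for Isg15, in 10 for Usp18 and in 1 for Ube2l6, and for Uba7 it was lost in 5 and turned in sign in 1. Many of these losses left the size in place, as for Isg15 without WT mouse T_69532 (-0.78, edgeR adjusted p = 0.0502). Without T60303 the differences were smaller, at -0.47 for Isg15 (edgeR adjusted p = 0.296), -0.55 for Usp18 (0.253) and -0.23 for Uba7 (0.499). Without T61340 the calls were lost at about the same size, -0.76, -0.89 and -0.81 (edgeR adjusted p = 0.129, 0.0978 and 0.0643). Without both mice, which leaves 1 TG mouse in cohort A, the Ube2l6 call was lost too (-0.53, edgeR adjusted p = 0.282) and the sign of Uba7 turned (0.20, edgeR adjusted p = 0.812). T60303 had the highest mean level of microglial markers among TG mice and the lowest of neuronal markers. T61340 stood apart from the other libraries in how its gene levels related to exon length, with a Spearman rho of -0.51 over 16149 genes against -0.19 to 0.33 in the other 20 mice. The part of these features in the cohort difference was not tested. With the level of Xist, a transcript of the inactive X chromosome, as a covariate, only Ube2l6 of the 4 kept its call.

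In WT mice no member passed the test between cohorts, beside 6.49% of all tested genes. The log2 differences of cohort B against A were -0.40 for Isg15 (SE 0.33, edgeR adjusted p = 0.515), -0.33 for Uba7, -0.35 for Ube2l6, 0.18 for Herc6 and 0.06 for Usp18. At an unadjusted p under 0.05, Ube2l6 alone of the 5 passed in WT mice (edgeR p = 0.021), as did 4010 of all 18248 tested genes. The test of whether the TG against WT difference itself varied with the cohort called no member and, by edgeR, no gene at all (0% of those tested, with 1030 at an unadjusted p under 0.05 and 1 gene, not a member, called by DESeq2). The difference was larger in cohort A by 0.90 (SE 0.46, edgeR adjusted p = 0.875) for Usp18 and by 0.45 (SE 0.20, edgeR adjusted p = 0.857) for Ube2l6.

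Of the 10 tested genes nearest to the members on the chromosome, 1 on each side of each, 1 was higher in TG mice, Serping1 (the inhibitor of complement C1), 23384 bases from Ube2l6, with a log2 fold change of 0.36 (SE 0.12, edgeR adjusted p = 0.0147), and none was lower, beside 23% higher and 21.7% lower over all tested genes. Gm46878 overlaps the 3′ end of Isg15, so reads there could be assigned to either, and its log2 fold change was -0.41 (SE 0.18, edgeR adjusted p = 0.0669), opposite in sign to Isg15. Inka1, 167 bases after Uba7, had a log2 fold change of 0.21 (SE 0.14, edgeR adjusted p = 0.261).

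The relatives of each member were set beside it. The numbers called in each list, here and below, stand beside 23% higher and 21.7% lower over all tested genes. Of the 4 other HERC genes tested (Herc1 to Herc4), none was called higher and 4 were called lower, with a median log2 fold change of -0.31 against -0.00 over all tested genes. Herc3, a small HERC protein like Herc6, had a log2 fold change of -0.48 (SE 0.06, edgeR adjusted p = 1.26e-06) and the giant ligase Herc1 one of -0.37 (SE 0.08, edgeR adjusted p = 0.000767). With library totals alone as the scale, which moves the median of all genes by 0.08, 2 of these 4 were called lower, and with cohort A alone none.

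Of the 9 other E1 enzymes, 1 was called higher and 3 lower, with a median of -0.08. Those lower included Uba3 (-0.29, SE 0.04), the Nedd8 E1 subunit, and Uba2 (-0.26, SE 0.04), the Sumo E1 subunit. The autophagy E1 Atg7 was the 1 called higher, at 0.16 (SE 0.06, edgeR adjusted p = 0.0411), but the number of E1 enzymes called higher moved in 18 of 33 alternatives (0 to 2), among them leaving out 1 mouse such as T61340, T61342, T61331 or T_70252 (0 each). Further, Uba1, the main ubiquitin E1, had 0.10 (edgeR adjusted p = 0.106). Of the 30 other E2 enzymes tested, 5 were called higher and 13 lower, with a median of -0.10, against 9 and 10 with library totals alone. The lowest were Ube2e1 (-0.33, SE 0.04) and Ube2v1 (-0.33, SE 0.05), a catalytically inactive partner of Ube2n. Ube2l3, the closest relative of Ube2l6, was higher at 0.24 (SE 0.04, edgeR adjusted p = 1.62e-05).

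Of the 46 other USP proteases tested, 9 were called higher and 13 lower, with a median of -0.02 (15 and 8 with library totals alone). The widest differences were those of Cyld (-0.75), a negative regulator of NF-κB signalling, Usp33 (-0.52), Usp31 (-0.40) and Usp29 (0.39). Of the 13 other ubiquitin-like modifiers tested, 5 were called higher and 3 lower, with a median of 0.03 (6 and 0 with library totals alone). Those higher included Fau (0.55, SE 0.06), which encodes a ubiquitin-like part fused to a ribosomal protein, and Urm1 (0.39, SE 0.05).

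**Figure D4:**
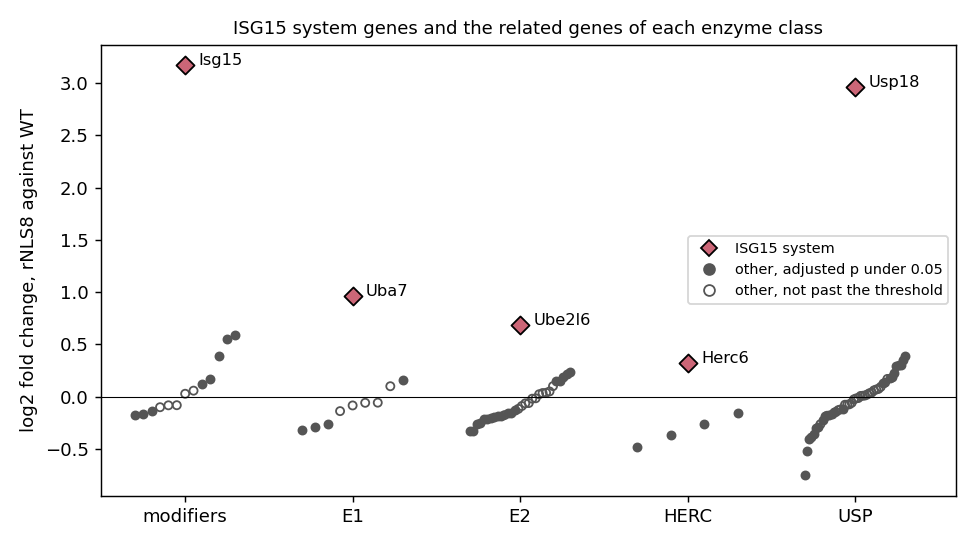
Log2 fold change of TG (rNLS8) against WT mice (y axis) for each ISG15 system gene (red diamonds) and the other genes of its class (circles), filled where the edgeR adjusted p was under 0.05. Each ISG15 system gene lies above all other genes of its class, from 0.32 for Herc6 to 3.17 for Isg15, and the red genes were chosen on this contrast.

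Of 12 further ISG15 ligases, proteases and binding partners, 4 were called higher (33.3%) and 3 lower (25%), with a median of -0.00. Trim25, a ligase that can conjugate ISG15 and that activates the RNA sensor RIG-I, ran from 134 to 213 normalized counts in WT mice and from 249 to 587 in TG mice, without overlap. Its log2 fold change was 0.98 (SE 0.11, edgeR adjusted p = 1.01e-07), the widest of the 12. Itgb2, a chain of the integrin LFA-1 that binds secreted ISG15, was higher at 0.49 (SE 0.11), whereas its partner chain Itgal had -0.24 (SE 0.22, edgeR adjusted p = 0.4). Usp16, a protease that can act on ISG15, was higher at 0.29 (SE 0.08) and Usp5 at 0.18 (SE 0.05). The ligase Arih1 was lower at -0.18 (SE 0.05). With library totals alone none of the 12 was lower.

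Of 15 described ISG15 substrates, 5 were called higher and 6 lower, with a median of 0.02. Those higher included genes that are themselves interferon-stimulated, the RNA sensor RIG-I (Ddx58) at 1.47 (SE 0.11) and the RNA-dependent kinase PKR (Eif2ak2) at 1.31 (SE 0.11). The sensor Mda5 (Ifih1) was higher at 0.83 (SE 0.10). The autophagy protein Becn1 was lower at -0.41 (SE 0.03, edgeR adjusted p = 4.36e-10).

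Of the 7 genes of the type I interferon receptor and ISGF3, 4 were called higher and 1 lower, with a median of 0.26. Irf9 ran from 122 to 177 normalized counts in WT mice and from 289 to 894 in TG mice, a log2 fold change of 1.84 (SE 0.11, edgeR adjusted p = 5.33e-12). Stat2 was higher at 0.65 (SE 0.11) and Ifnar2, the chain that Usp18 binds, at 0.26 (SE 0.06), while Ifnar1 had -0.02 (SE 0.03, edgeR adjusted p = 0.63). The kinase Jak1 was lower at -0.14 (SE 0.04), a call that was lost with library totals alone. The interferons themselves were at or near the limit of detection. None of the 21 ligand genes passed the filter, and Ifnb1 had 0 reads over the 11 WT mice and 1 over the 10 TG mice, Ifng 0 and 2, and Ifnz 3 and 1. A count of 0 allows up to 3 reads per group, and such intervals cover counting error only.

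By a rule of likeness (the highest Pearson r of log2 CPM over the 10 TG mice, among 18243 other tested genes), the genes most like Isg15 were Oasl2 (0.996), Irf7 (0.986), Irf9 (0.980), Ifi204 (0.979) and Bst2 (0.979). Oasl2 (0.983) and Irf7 (0.979) also led for Usp18, followed by the chemokine Cxcl10 (0.978). Uba7 lay closest to Xaf1 (0.984) and Ccl12 (0.957), Ube2l6 to Tagln2 (0.970), the copy row of the class I gene H2-K1 (0.969), Emx2 (0.966) and H2-K1 itself (0.965), and Herc6 to Trim30a (0.926) and Lair1 (0.917). Over all 5 members the highest mean r was that of Irgm2 and Irf9 (0.889 each), then Rtp4 (0.880). Isg15 had 91 genes with r over 0.9, Ube2l6 115, Usp18 81, Uba7 55 and Herc6 6. These points share libraries and normalization, and the values are descriptions.

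Markers of brain cell types moved with the genotype too, and their part in the values above was not tested. Of 10 microglial markers, 6 were called higher, led by Cd68 (0.67), Ptprc (0.50) and Aif1 (0.47), and 1 lower, P2ry12 (-0.35). Their summed level was 370 to 422 CPM in WT and 394 to 542 in TG mice, so the ranges overlapped. Of 6 astrocyte markers, Gfap was higher (1.03) and 4 were lower, and the summed level was 1952 to 2497 CPM in WT and 1813 to 2661 in TG mice. Of 4 neuronal markers, 3 were lower, led by Snap25 (-0.75), with summed levels of 4398 to 5724 CPM in WT and 2988 to 3785 in TG mice, without overlap. Neurod6 and Tbr1, markers of cortical excitatory neurons, were detected in both genotypes, with the 5 markers of that list summing to 4685 to 7366 CPM in WT and 3561 to 5327 in TG mice, beside the labelled neocortex. Of 4 tested markers of infiltrating myeloid cells, Lyz2 alone was called higher (0.59, with 187 to 286 normalized counts in WT and 181 to 1113 in TG mice), a call lost with DESeq2, in either cohort alone and without T60303 and T61340, while Ccr2, S100a8, S100a9 and Plac8 did not pass the filter. Without a filter 3 of the 8 were called higher, Plac8 had 16 reads over all WT and 148 over all TG mice and Ccr2 49 and 88, and summed levels of the 8 were 14.8 to 23.1 CPM in WT and 14.7 to 64.2 in TG mice. The 8 T and NK cell markers summed to 1.23 to 15.6 CPM in WT and 1.39 to 7.57 in TG mice, with only Cd4 tested and lower (-1.24). Cd4 held nearly all of these reads (1860 over all WT and 847 over all TG mice), so the sum follows Cd4. The other markers had 2 to 18 reads over each genotype, such as Cd8a with 5 in WT and 18 in TG and Cd3e with 10 and 6. The 4 B cell markers summed to under 1 CPM in every mouse. No marker gene was at 0 over all mice.

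Within TG mice, the level of Isg15 was set against the mean log2 CPM of 5 marker lists and against Tardbp, 6 relations in all, and none passed by permutation test after adjustment. The r was 0.786 with microglial markers (permutation p = 0.0198, adjusted p = 0.0705) and 0.769 with astrocyte markers (permutation p = 0.0235, adjusted p = 0.0705), and without the 2 mice farthest from the median these became 0.156 and -0.33. In cohort B without T_70267 they were -0.84 and -0.22. With endothelial, neuronal and oligodendrocyte markers r was 0.579, -0.44 and -0.53, and with Tardbp -0.52. They too varied with the mice used. Without T_70267 they were -0.40 for endothelial and -0.12 for oligodendrocyte markers, and in cohort B alone 0.48 for neuronal markers and -0.02 for Tardbp. Tardbp, the mouse gene of the protein that the transgene encodes in human form, ran from 2253 to 2827 normalized counts in WT and from 2363 to 5053 in TG mice. Its TG cohorts did not overlap, with 6.79 to 7.18 log2 CPM in cohort A and 7.69 to 7.89 in cohort B, higher in B by 0.75 (SE 0.07, edgeR adjusted p = 4.81e-06), the opposite direction to Isg15, Uba7, Ube2l6 and Usp18. T61340, at 6.79, lay within the 6.72 to 6.96 of WT cohort A. The part of this in the cohort differences of the members was not tested. How reads of the human transgene were divided between this row, its copy row and no row at all is not given in the sources used here.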

How the data were processed

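Total RNA from 30 mg of neocortex per mouse was sequenced as paired 100-base reads. The authors aligned reads to GRCm38 (mm10) and deposited raw read counts per gene symbol. The processing notes name HISAT, HISAT2, Bowtie2, RSEM and Bowtie without roles, and the counting program and its use of strand are not given in the sources used here. Of 48474 rows, 13329 held no counts and 2553 were further copies of a symbol, none of them of a member.

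Genes were kept by edgeR's filter (minimum count 10, minimum total 15). Counts were normalized by TMM and tested with edgeR 4.0.16 in R 4.3.3 (quasi-likelihood, Benjamini-Hochberg, threshold 0.05), genotype with cohort as covariate. The script was tested on simulated data. DESeq2 1.42.0, other scalings and filters, Xist as covariate, single cohorts and each mouse left out were alternatives. With TMM 4190 genes were called higher and 3964 lower, with library totals alone 5832 and 2752. Log2 CPM used a prior count of 2, and correlations 100000 permutations. Figures used matplotlib 3.10.9.

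The members and all gene lists were chosen with earlier results of these data known. Named genes were the members, from each list up to 4 called genes with the widest difference and close relatives, neighbours, the genes most like the members, and Tardbp. Some genes that the rule names are not reported here. Some genes outside this rule, such as further markers, were named after their values were seen. Each library is a separate mouse in the labels, and no 2 libraries of a group agreed within sampling noise (the lowest chi-square per degree of freedom was 3.84).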

Additional observations from a re-analysis of the deposited data

Results flagged for a closer look

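Among 26 groups of 4 to 10 mice searched for a sample far from the others, 7 were found. Chance gives about 1 in 20, or 1.3 if the groups were independent, which they are not, since 4 of the 7 are T_70267, 3 of them on correlated genes, and 2 are T60303. The measure is the gap to the nearest mouse divided by the whole range, on the log2 CPM scale. T_70267 was the lowest of the 7 TG mice of cohort B, far from the rest, for Isg15 (0.643), Ube2l6 (0.704) and Usp18 (0.640). Its Isg15 level was 1.96 log2 CPM against 3.12 in the nearest mouse, and its Usp18 level 1.41 against 2.51. The same mouse had the lowest mean of endothelial markers among the 10 TG mice (0.541). T60303 had the highest mean of microglial markers among TG mice (0.477), at 5.11 against 4.81 log2 CPM in the nearest mouse, and the lowest mean of neuronal markers (0.474), at 9.33 against 9.47. In WT mice of cohort A, T61334 had the lowest Isg15 level (0.914), at 0.50 against 0.87 log2 CPM, on a count of 27 reads.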

How the results depend on the processing

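Isg15, Uba7, Ube2l6, Herc6 and Usp18 were higher in TG mice under each of 33 alternatives, with log2 fold changes of 2.95 to 3.43, 0.73 to 1.25, 0.52 to 1.0, 0.19 to 0.59 and 2.64 to 3.57, though Herc6 was not called in cohort B alone or without T60303 and T61340. The number of genes called between genotypes was 8154 and 2195 with cohort A alone, which has fewer mice. Between cohorts in WT mice it was 1184, and 789 without a filter, 413 with Xist as covariate, 1929 without T60303 and T61340, and 466 to 1645 with 1 mouse left out (466 without T61331, 762 without T61333, 778 without T_70262). Between cohorts in TG mice it was 2149, and 481 with Xist, 110 without T60303 and T61340, and 904 (without T61340) to 3820 (without T61342) with 1 mouse left out. The interaction had 0, against 1 with DESeq2, 2 without T60303 and T61340, and 0 to 1 with 1 mouse left out (1 without T60303, T61345 or T61333). The cohort difference of Uba7 in TG mice turned from -0.73 to 0.20 without T60303 and T61340. Of the 10 pairs of members, 6 were correlated in TG mice, and 3 passed with values centred on the cohort, 2 in cohort B alone, 2 without the 2 farthest mice and 3 to 8 with 1 mouse left out (3 without T60303 or T61340, 8 without T_70267). In cohort B without T_70267, chosen after the values were seen, 0 passed, and r turned to -0.42 for Isg15 with Uba7 and to -0.30 for Uba7 with Usp18. The causes of these shifts beyond the number of mice were not tested. No paired analysis was made, since each replicate number is that of 1 mouse and the labels used here do not give the litters. WT counts of Isg15 and Usp18, 12 to 40 reads a mouse, limit what can be resolved among WT mice.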
